A study of Mus musculus with 18 samples.

Results

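The respiratory chain of the mouse embryonic stem cell (ESC) is built from proteins of both genomes, and the genes described here are those of the nuclear genome that encode subunits of complexes I to IV and of the ATP synthase, the mobile carrier cytochrome c and a few close partners. Members were taken by a rule on the symbol alone, which reads no measured value, and 82 of the 53672 genes listed in the count files qualified: 35 of complex I (NADH dehydrogenase, symbols beginning Nduf), 4 of complex II (succinate dehydrogenase, Sdh), 9 of complex III (Uqcr and Cyc1), Cycs, 17 of complex IV (cytochrome c oxidase, Cox, and Ndufa4) and 16 of the ATP synthase (Atp5). Of these, 81 were tested, and the muscle isoform gene Cox8b, which had between 0 and 0.907 CPM (counts scaled to a common library total) in the 18 libraries, did not pass the filter on low counts. The 37 listed mitochondrial genes held no counts in any library, so the subunits that mitochondria encode are not described. A symbol rule is not complete. Cox4i1, Ndufab1 and a few others lie outside it.

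Electrons from NADH enter at complex I and those from succinate at complex II, pass over ubiquinone to complex III and over cytochrome c to complex IV, and the proton gradient made on the way drives the ATP synthase. Each complex has a catalytic core and, around it, supernumerary subunits that serve assembly and stability; several of those of complex IV come as a widely used isoform and a heart, muscle or testis isoform from separate genes. Naive mouse ESCs respire as well as ferment glucose, and the nuclear subunit genes are known targets of the transcription factors NRF1, GABP (an ETS family factor) and YY1.

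All cells were E14TG2a ESCs whose endogenous Hdac1 and Hdac2 genes carry loxP sites (Hdac1/2 lox/lox). Into these cells a Flag-tagged HDAC1 had been introduced stably, so that each line is a separate transfectant: HDAC1–WT (normal protein), HDAC1–E63R (which does not bind NuRD or MiDAC and binds less CoREST) or HDAC1–Y48E (which keeps SIN3 as its partner and loses the others). Each line was sequenced without treatment and on day 5 of treatment with 1 µM 4-hydroxytamoxifen (OHT), for which the labels give all the days and the study's methods a first day with the drug and culture for the days after. OHT activates the recombinase that removes the endogenous genes and leaves the introduced protein as the only HDAC1 or HDAC2. There were 3 libraries in each of the 6 groups, all in serum with leukaemia inhibitory factor. Nothing in the labels says that the 3 were separate cultures, so the p-values measure the spread between these libraries.

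The libraries held between 9019615 and 11454638 counts on genes, and 3 counts, the limit used for detection, corresponded to between 0.248 and 0.343 CPM. The members took between 1.22% and 1.76% of these counts. Untreated HDAC1–E63R replicate 3 stood apart from every other library: its chi-square per degree of freedom against its 2 partner libraries was 60.4 and 67.1, against 3.38 to 7.42 for all the other pairs of replicates. Over 12518 genes with a mean of at least 5 CPM, its median log2 difference from its partners was 0.50 in the shortest of 4 equal groups of genes by length and −0.51 in the longest. Members have short transcripts, with a median of 1718 exonic bases against 4275 for these genes, and 77 of 77 members at this level were higher in it than in the mean of its partners, by a median of 0.96 log2 units. Counts and tests by edgeR of comparisons with this library's group are therefore given with and without it. The library also enters the shared estimate of spread in all other comparisons. There many single genes and smaller sets are given only for the fit with all libraries. Hdac1 counts, which do not separate the introduced from the endogenous transcript or the deleted exons from the rest and so do not check the deletion, were 204, 201 and 210.4 CPM before and 169, 173 and 179 CPM after OHT in HDAC1–WT, 110.2, 94.9 and 110.1 CPM before and 112, 123 and 131 CPM after in HDAC1–E63R, and 97.9, 104 and 102 CPM before and 110.1, 111 and 113 CPM after in HDAC1–Y48E. Hdac2 counts, which hold the deleted and the remaining exons, ranged from 112 to 133 CPM after OHT in HDAC1–WT (before it, 208, 169 and 208 CPM), from 149.7 to 158 CPM in HDAC1–E63R (before it, 169, 152 and 209.6 CPM) and from 139 to 152 CPM in HDAC1–Y48E (before it, 149, 154 and 151 CPM).

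**Figure D1:**
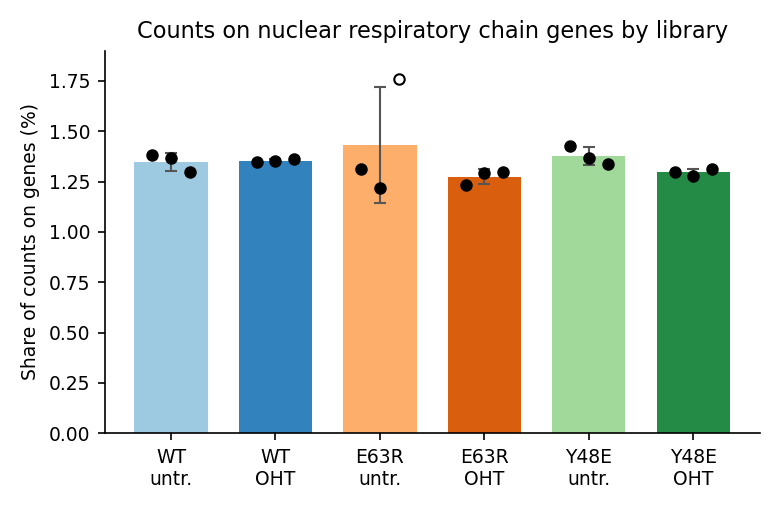
Counts on the 82 members as a percentage of the counts on genes (y axis) in the 6 groups (x axis; untr., untreated). Bars give the mean of 3 libraries, error bars the SD and points single libraries, the open point being untreated HDAC1–E63R replicate 3. That library is at 1.76% and the others between 1.22% and 1.43%.

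Sequences upstream of 7 members are shown first, and 3 of them hold letters known as binding motifs of NRF1 or ETS factors. They were taken from RefSeq (GRCm38.p6), read 5′ to 3′ on the strand of the gene, and cover the stretch of up to 150 bases nearest to the start of transcription that holds no annotated exon. Capitals mark matches to the motif NRF1 (GCGCA, any base, GCGC) or ETS (CCGGAAG, on the other strand CTTCCGG). Neither these nor the YY1 motif (AAGATGGC) matched in the stretches of Cox7b2, Cox7b, Cycs and Cox8a, which says only that these exact letters are not there. In the whole promoter window, of which the stretch is a part, Cox8a and Cox6a1 also hold the ETS letters and Sdhd the NRF1 letters.
Cox7b2: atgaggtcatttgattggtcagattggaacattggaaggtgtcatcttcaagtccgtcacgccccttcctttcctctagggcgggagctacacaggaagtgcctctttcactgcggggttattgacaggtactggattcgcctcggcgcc
Cox7b: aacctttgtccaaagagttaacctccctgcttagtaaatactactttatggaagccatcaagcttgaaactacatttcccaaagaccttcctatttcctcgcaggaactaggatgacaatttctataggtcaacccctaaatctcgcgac
Cycs: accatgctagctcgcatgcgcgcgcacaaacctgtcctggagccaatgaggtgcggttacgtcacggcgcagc
Cox8a: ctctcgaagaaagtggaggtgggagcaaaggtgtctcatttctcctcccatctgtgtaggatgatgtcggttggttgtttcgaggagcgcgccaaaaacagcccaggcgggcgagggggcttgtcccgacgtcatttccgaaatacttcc
Cox6a1: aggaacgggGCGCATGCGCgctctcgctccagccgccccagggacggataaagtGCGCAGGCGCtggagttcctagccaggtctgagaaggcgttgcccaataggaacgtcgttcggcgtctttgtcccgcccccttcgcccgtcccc
Ndufb4: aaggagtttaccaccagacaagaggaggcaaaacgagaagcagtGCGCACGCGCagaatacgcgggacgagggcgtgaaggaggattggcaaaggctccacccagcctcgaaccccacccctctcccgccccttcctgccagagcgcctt
Sdhd: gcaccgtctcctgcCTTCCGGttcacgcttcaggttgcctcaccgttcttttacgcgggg

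The stretches lie at chr5:71548206-71548355 (minus strand), chrX:106015550-106015699 (plus strand), chr6:50566570-50566642 (minus strand), chr19:7217617-7217766 (minus strand), chr5:115348982-115349129 (minus strand), chr16:37654454-37654603 (minus strand) and chr9:50603850-50603909 (minus strand). In Cox6a1 the NRF1 letters began 162 and 117 bases before the start, and the first of these is its own reverse complement. In Ndufb4 they began 191 bases before the start, and the ETS letters of Sdhd 46 bases before it. Searched on both strands of the whole promoter window, from 250 bases before to 50 after the start, the NRF1 motif was present in 17 of the 69 members with a window in the table (24.6%) and in 5.19% of 27025 genes. The ETS motif was present in 16 (23.2%, all genes 9.93%) and the YY1 motif in 10 (14.5%, all genes 3.19%). At least 1 of the motifs was found in 37 of the 69 members (53.6%) and in 16.4% of all genes. Letters shared by the motifs were counted for each, and a match is a description of the sequence, not of binding.

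In untreated HDAC1–WT ESCs the members spanned a wide range of levels. Compared per kilobase of exon, since counts grow with transcript length, the highest were Cox8a (859 CPM per kb), the ubiquitous form of the smallest complex IV subunit, the catalytic β subunit gene of the ATP synthase Atp5b (563), the ubiquitous complex IV subunit gene Cox6a1 (543), the ATP synthase α subunit gene Atp5a1 (381) and Cox7c (324). The lowest were Ndufb2 (0.477), the testis isoform genes Cox8c (3.63) and Cox7b2 (5.03), Atp5s (9.47), whose product is a coupling factor and not a subunit of the synthase core, and the heart and muscle isoform gene Cox6a2 (11.2). A gene annotated on the same strand, Gm42420, shares exonic bases with Ndufb2, and the count of Ndufb2 is uncertain for that reason. The median level per kb was 126 CPM for complex III, 125 for complex IV, 85.7 for the ATP synthase, 63.5 for complex II, 44.8 for the complex I core and 48.8 for the other complex I genes. Cycs, with 19.5 CPM per kb, stood below the median of each complex.

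**Figure D2:**
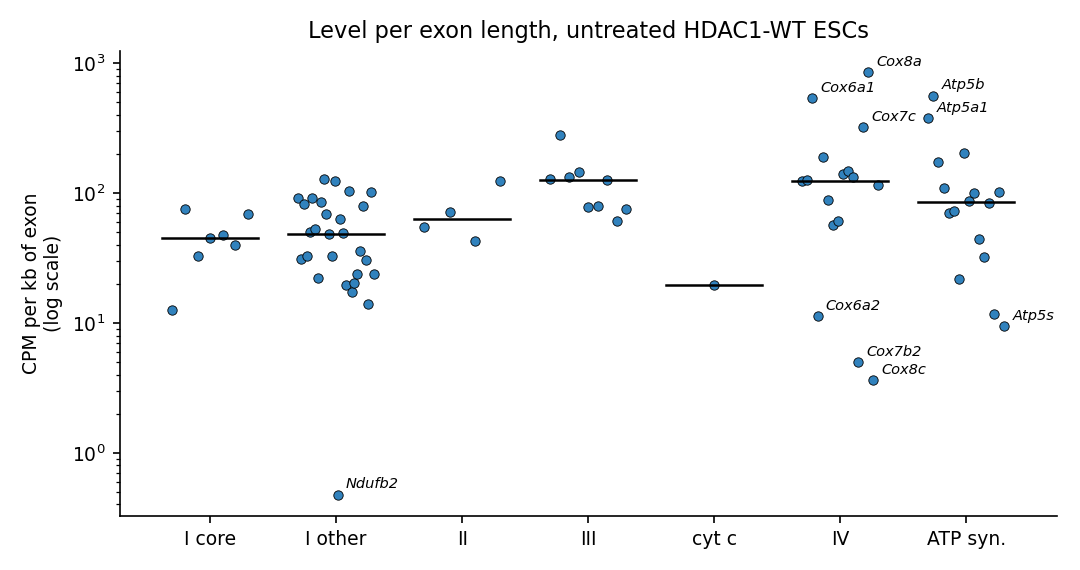
Mean level of each tested member in the 3 untreated HDAC1–WT libraries as TMM-scaled CPM per kb of exon (y axis, log scale), by complex (x axis: complex I core, other complex I genes, complexes II and III, cytochrome c, complex IV, ATP synthase). Points are genes, lines medians, and the 5 highest and 5 lowest genes are named. Levels run from 0.477 for Ndufb2 to 859 for Cox8a.

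The widely used isoform was the higher of each pair in these cells. In untreated HDAC1–WT ESCs Cox6a1 was at 543 CPM per kb and Cox6a2 at 11.2, Cox7b was at 134 and Cox7b2 at 5.03, and Cox7a2 was at 140.2 and the heart and muscle isoform Cox7a1 at 60.7. The testis isoform Cox6b2 was less rare, at 88.96 CPM per kb beside 189 for Cox6b1. Markers of muscle were low in the same libraries, with a summed level of 56.9 to 64.3 CPM over 12 genes against 5038 to 5162 CPM over 12 ESC markers.

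The HDAC1–WT line shows what OHT and the loss of the endogenous enzymes do where normal HDAC1 remains. In it no member rose and none fell by edgeR's test at an adjusted p under 0.01. No member had an unadjusted p under 0.05 either, and DESeq2 called 0. Over all genes 0.0373% rose and 0.0213% fell. The log2 fold changes (log2FC) of the members had a median of 0.00 and ranged from −0.77 for the scarce Cox8c to 0.27 for Atp5k. Leaving out the HDAC1–E63R library, which enters the shared estimate of spread, gave 0 members again (all genes 0.738% and 0.656%), with 10 at an unadjusted p under 0.05. The members took 1.35% ± 0.0441 (SD, n = 3) of counts before and 1.35% ± 0.00822 after OHT.

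In the HDAC1–Y48E line 19 of the 81 members fell after OHT and 3 rose. Falls ran from −1.45 for Cox6a2 to −0.48 for Atp5b on the log2 scale, and 3 of them were DEGs, here genes with an adjusted p under 0.01 and a change of over 2-fold: Cox6a2, Cox6b1 and Cox7b (5.84% of all genes, and 10.8% in the other direction). The rises were Cox7b2, the testis isoform of Cox7b and the third-lowest member per kb in HDAC1–WT ESCs, Cycs and the complex I gene Ndufa10. Of all 18791 genes tested 14.7% fell and 16.2% rose, beside 23.5% and 3.704% of the members. The median log2FC was −0.19 over the members and 0.05 over all genes, and 61 of the 81 were negative. Without untreated HDAC1–E63R replicate 3, which belongs to another line but enters the shared estimate of spread, 38 fell and 9 rose (all genes 19.9% and 21.2%), and the 22 of the first fit were among them. The members took 1.38% ± 0.0454 (SD, n = 3) of counts before and 1.296% ± 0.0182 after OHT. With trends of GC content and length removed from the counts, 35 fell and 1 rose, beside 4797 and 2252 of the 18791 genes tested, and the median of all genes then moved to −0.19, and relative to it the members' median was −0.25 against −0.23 without this removal. The 1 that rose in that fit was Cox7b2, and Cycs and Ndufa10 no longer passed.

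**Figure D3:**
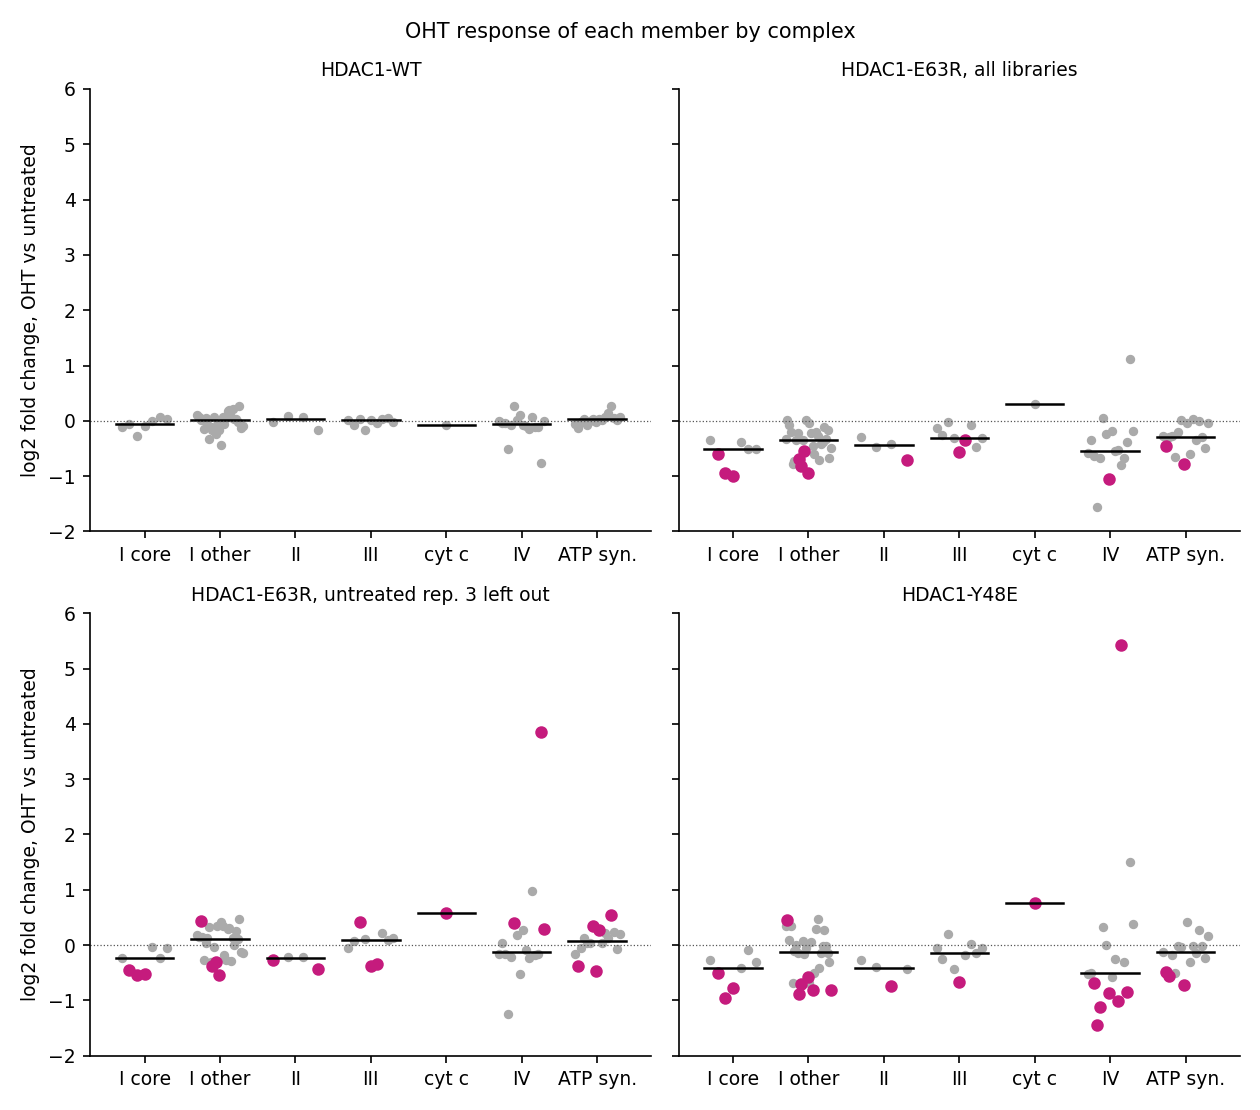
log2 fold change of OHT-treated against untreated cells (y axis) for each of the 81 tested members by complex (x axis, groups as in the plot of levels per kb), with 1 panel for HDAC1–WT, 2 for HDAC1–E63R (with and without untreated replicate 3) and 1 for HDAC1–Y48E. Coloured points passed an adjusted p of 0.01, grey points did not and lines are medians. No point is coloured for HDAC1–WT, 13 are in HDAC1–E63R with all libraries and 21 without replicate 3, and 22 are in HDAC1–Y48E, where Cox7b2 lies at 5.43. The point at 3.85 in HDAC1–E63R is Cox8c, whose 2 remaining untreated libraries held 2 and 0 counts, under the limit of 3.

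Cox7b2 showed the largest change of any member. This gene (chr5:71442824-71548205, minus strand, mm10) had 0.33, 0.228 and 0.108 CPM in the untreated HDAC1–Y48E libraries, which were 3, 2 and 1 counts, and 9.54, 10.2 and 10.3 CPM after OHT, which were 95, 113 and 114 counts. The treated libraries lay above all 15 others in the series. The ratio of the summed counts, scaled for library size, was 45.4, with an exact (Clopper-Pearson) 95% interval of 20.6 to 125 that covers counting error only, and the fitted log2FC 5.43, SE 0.74, adjusted p = 4.22e-06. In HDAC1–WT the gene was low and did not pass the test, with 1.58, 2.99 and 3.6 CPM before and 2.696, 4.17 and 1.68 CPM after OHT. In HDAC1–E63R it stayed under 1 CPM in all libraries but the one that stood apart (0.0924, 0.452 and 2.29 CPM before and 0.497, 0.381 and 0.685 CPM after). The response differed from that of HDAC1–WT (log2FC 5.36, SE 0.94, adjusted p = 2.55e-04) and from that of HDAC1–E63R (log2FC 6.23, SE 1.05, adjusted p = 7.77e-04). Without untreated HDAC1–E63R replicate 3 the latter was 4.45 with adjusted p = 0.00721, on near-zero counts in the remaining 2 untreated libraries. Before OHT Cox7b2 was lower in HDAC1–Y48E than in HDAC1–WT (log2FC −3.55), and this lower start enters the difference between their responses. After OHT the gene was higher in HDAC1–Y48E than in HDAC1–WT by a log2FC of 1.81, which passed only without untreated HDAC1–E63R replicate 3.

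The partner gene Cox7b (chrX:106015700-106022450, plus strand), the isoform that most tissues use, went the other way. It had 242, 210.1 and 198 CPM before and 113, 103 and 106 CPM after OHT in HDAC1–Y48E (log2FC −1.01, SE 0.16, adjusted p = 1.91e-05). The groups did not overlap. In HDAC1–WT the libraries held 162, 169 and 155 CPM before and 147, 141 and 150.2 CPM after, and the responses of the lines differed with all libraries (log2FC −0.86, SE 0.22, adjusted p = 0.00665). That difference did not pass when any 1 of the 12 libraries of the 2 lines but untreated HDAC1–Y48E replicate 3 was left out (log2FC −0.91 to −0.78), nor with relative log expression factors. After OHT Cox7b2 was still the lower of the pair in HDAC1–Y48E, at 18.5 CPM per kb against 88.5 for Cox7b. A processed pseudogene, Gm19503, matches part of the Cox7b transcript closely, so some of its reads may have been lost or shared in counting. No such copy was found for Cox7b2. Where a gene on the other strand shares exonic bases, as for Cox6a2 (Itgad), Ndufs3 (Kbtbd4), Ndufb11 (Rbm10) and Atp5a1 (Haus1), reads there cannot be told apart, since the strand setting of the counting is not stated.

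Other complex IV genes also fell in HDAC1–Y48E. Of the 16 tested, 6 fell and Cox7b2 rose (all genes 14.7% and 16.2%), with a median log2FC of −0.51. Without untreated HDAC1–E63R replicate 3, 11 fell and 3 rose (all genes 19.9% and 21.2%). Cox6b1, whose product faces the intermembrane space where cytochrome c docks, had 167, 124 and 124 CPM before and 61.8, 64.5 and 64.6 CPM after OHT (log2FC −1.12, SE 0.20, adjusted p = 1.39e-04). Its replicate 1 before OHT was the highest of the line, and all 3 treated libraries were well below the lowest untreated one. Its testis isoform Cox6b2 held 90.7, 78.8 and 72.8 CPM before and 99.1, 98.8 and 108 CPM after, and did not pass (log2FC 0.33, SE 0.17, adjusted p = 0.11; without untreated HDAC1–E63R replicate 3, 0.33 with adjusted p = 0.00137). Cox8a had 595, 532 and 532 CPM before and 313, 286 and 325 CPM after (log2FC −0.84, SE 0.12, adjusted p = 1.07e-05), and its response differed from that in HDAC1–WT (log2FC −0.74, SE 0.17, adjusted p = 0.00389), a call lost when any 1 of 4 libraries was left out (log2FC −0.69 to −0.68). Cox6a1 fell as well (log2FC −0.68, SE 0.19, adjusted p = 0.00645), and Cox5a, a widely used subunit without an isoform, did not pass with all libraries (log2FC −0.52, SE 0.18, adjusted p = 0.0234) and passed without untreated HDAC1–E63R replicate 3. The low heart and muscle isoforms fell too, Cox6a2 from 7.81, 11.4 and 7 CPM to 3.91, 3.08 and 2.61 CPM and Cox7a1 from 36.8, 22.5 and 32.1 CPM to 17.6, 18.05 and 14.3 CPM, with log2FC −1.45 and −0.87. The call of Cox6a2 was lost when any 1 of the 6 libraries of the line was left out, and that of Cox7a1 when any but untreated replicate 2 was. The summed level of 12 muscle markers ranged from 93.04 to 94.2 CPM before and from 214 to 231 CPM after OHT, and 7 of the 11 tested rose. Cox8c was at 0.44, 0.455 and 0.862 CPM before and 2.81, 1.27 and 0.99 CPM after and did not pass (adjusted p = 0.19).

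Cycs had the next-highest rise. It encodes somatic cytochrome c, the carrier between complexes III and IV that also starts the apoptosome. Its libraries held 106, 97.8 and 102 CPM before and 181, 162 and 177 CPM after OHT in HDAC1–Y48E (log2FC 0.77, SE 0.14, adjusted p = 1.92e-04). This call was kept under 13 alternatives and lost under 2, both with GC and length trends removed. In HDAC1–WT the libraries held 75.1, 61.7 and 62.7 CPM before and 64.6, 69.2 and 56.5 CPM after, and the responses differed with all libraries (log2FC 0.83, SE 0.21, adjusted p = 0.0053). That difference did not pass when any 1 of 8 of these 12 libraries was left out (log2FC 0.74 to 0.86), nor with GC and length trends removed. In HDAC1–E63R they held 84.02, 85.1 and 138 CPM before and 130.2, 123 and 127 CPM after, where the high untreated value is that of replicate 3. With it the change did not pass (log2FC 0.31, SE 0.14, adjusted p = 0.12), and without it Cycs rose (log2FC 0.58 with adjusted p = 3.42e-06) and differed from HDAC1–WT (log2FC 0.65 with adjusted p = 2.51e-04). The test of HDAC1–Y48E against HDAC1–E63R did not separate their responses in either fit. Near-identical copies of part of the transcript exist, among them Gm10053, so the counts of Cycs may not hold all of its reads. Ndufa10, a supernumerary subunit of the membrane arm of complex I, held 98.98, 85.7 and 83.6 CPM before and 118, 126 and 125 CPM after in HDAC1–Y48E (log2FC 0.46, SE 0.11, adjusted p = 0.00169), and its response passed against that of HDAC1–WT only without untreated HDAC1–E63R replicate 3 (with it, log2FC 0.38, SE 0.15, adjusted p = 0.0796). The call of its rise in HDAC1–Y48E was kept under 11 alternatives and lost under 4, among them both with GC and length trends removed.

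**Figure D4:**
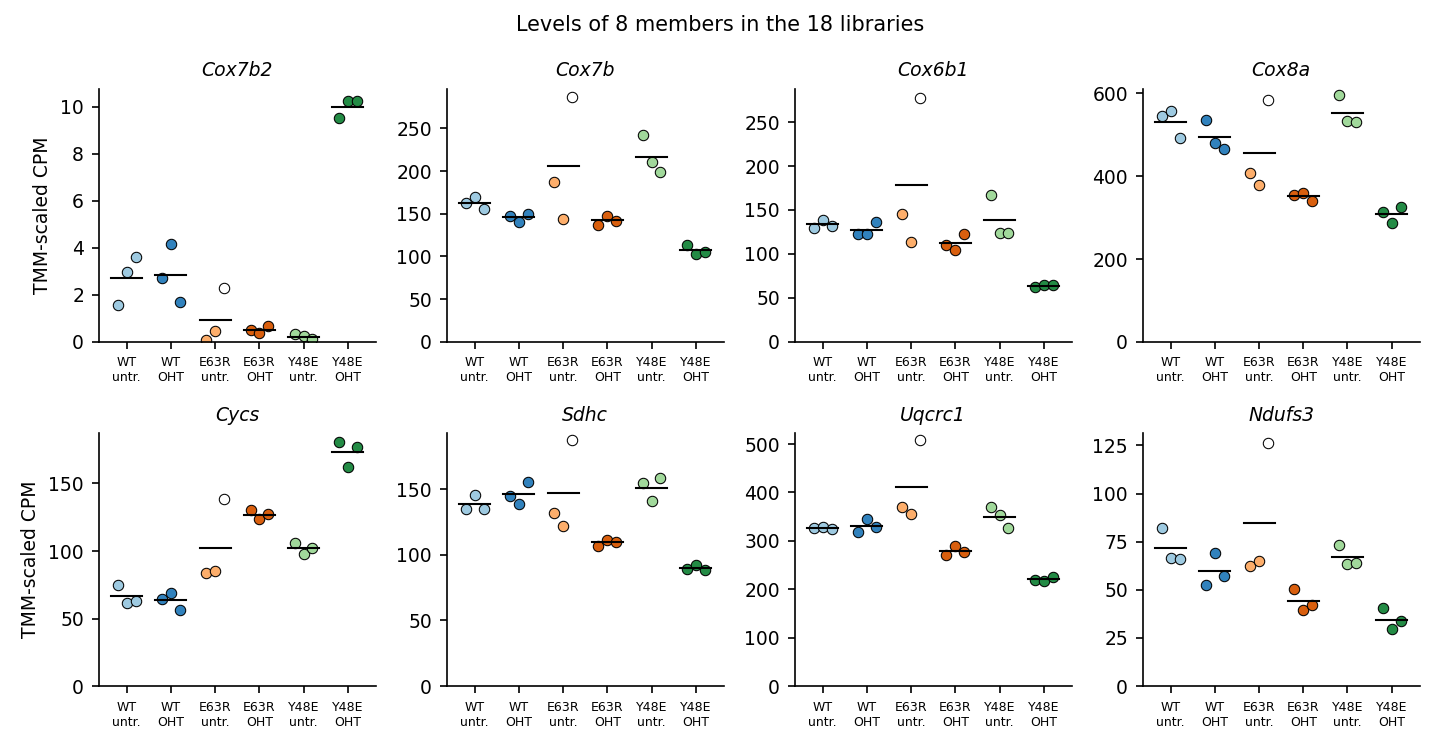
TMM-scaled CPM (y axis) of Cox7b2, Cox7b, Cox6b1, Cox8a, Cycs, Sdhc, Uqcrc1 and Ndufs3 in each of the 18 libraries by group (x axis). Points are libraries, lines means of 3, and the white point is untreated HDAC1–E63R replicate 3. Cox7b2 and Cycs are highest in OHT-treated HDAC1–Y48E, at 10.01 and 173 CPM on average, and the other 6 genes are lowest there.

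Among the genes of complex I, 8 of 35 fell in HDAC1–Y48E and Ndufa10 rose (all genes 14.7% and 16.2%). All 7 core genes had a negative log2FC, with a median of −0.41, and 3 of them passed. Ndufs3, a core subunit of the peripheral arm, had 73.5, 63.2 and 63.8 CPM before and 40.3, 29.7 and 33.6 CPM after OHT (log2FC −0.95, SE 0.20, adjusted p = 6.73e-04). Ndufs7, which holds the iron-sulphur cluster nearest to ubiquinone, had 67.9, 78.2 and 67.2 CPM before and 38.9, 42.5 and 42.9 CPM after (log2FC −0.78, SE 0.20, adjusted p = 0.00393). Among the core genes that did not pass, the log2FC was −0.27 for Ndufs1, −0.41 for Ndufs8, −0.089 for the flavin subunit Ndufv1 and −0.30 for Ndufv2. In the fit without untreated HDAC1–E63R replicate 3, 6 of the 7 passed. Of all 35 genes of complex I, 14 fell and 4 rose in that fit (all genes 19.9% and 21.2%). The 28 supernumerary genes were mixed, with a median of −0.13 and 9 of 28 positive. Ndufa6 had 166, 140.3 and 115 CPM before and 73.3, 76.4 and 79.4 CPM after (log2FC −0.88, SE 0.19, adjusted p = 5.99e-04), and Ndufb4 had 127, 108 and 114 CPM before and 69.2, 64.3 and 64.1 CPM after (log2FC −0.82, SE 0.15, adjusted p = 1.40e-04). In neither gene did the groups overlap. The transcripts of Ndufs3, Ndufb4 and Ndufb11 have near-identical processed copies elsewhere in the genome (Gm12251, Ndufb4c and Gm6444), and their counts are uncertain to that extent.

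Complex II is the only complex made wholly by the nucleus, and also serves the citric acid cycle. All 4 genes had a negative log2FC in HDAC1–Y48E, and the treated and untreated libraries did not overlap in any of them. Such separation in the lower direction was seen in 27.5% of all genes. Sdhc, a membrane anchor, passed: it had 155, 141 and 158 CPM before and 89.4, 91.9 and 88.7 CPM after (log2FC −0.75, SE 0.12, adjusted p = 3.86e-05), while HDAC1–WT had 135, 146 and 135 CPM before and 145, 139 and 156 CPM after. Its responses differed between these lines (log2FC −0.82, SE 0.17, adjusted p = 0.0013). For the flavoprotein gene Sdha, the iron-sulphur subunit gene Sdhb and the other anchor Sdhd the log2FC was −0.28, −0.41 and −0.43, which passed in the fit without untreated HDAC1–E63R replicate 3 and not in the fit with all libraries.

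In complex III 1 of 9 genes fell, beside 14.7% of all genes, and 3 fell without untreated HDAC1–E63R replicate 3, beside 19.9%. Uqcrc1, a core protein on the matrix side, had 369, 353 and 326 CPM before and 219.7, 218 and 225 CPM after OHT in HDAC1–Y48E (log2FC −0.66, SE 0.11, adjusted p = 3.95e-05). In HDAC1–WT it had 326, 328 and 325 CPM before and 319, 345 and 328 CPM after, and the responses differed (log2FC −0.69, SE 0.15, adjusted p = 0.00244). The genes of the redox subunits were close to level: Cyc1, which encodes cytochrome c1, had log2FC −0.062 ± 0.10 (SE) and Uqcrfs1, which encodes the Rieske protein, 0.021 ± 0.14, and neither passed.

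Of the 16 ATP synthase genes 3 fell in HDAC1–Y48E, beside 14.7% of all genes. Without untreated HDAC1–E63R replicate 3, 6 fell and 1 rose (all genes 19.9% and 21.2%). Atp5b, the most abundant member by counts, had 2350.2, 2339 and 2342 CPM before and 1685, 1668 and 1673 CPM after OHT (log2FC −0.48, SE 0.08, adjusted p = 5.70e-05), and fell with Atp5c1, the γ subunit gene (log2FC −0.56), and Atp5g2 (log2FC −0.72). The α subunit gene Atp5a1, whose product stands in equal number with that of Atp5b in the catalytic head, did not pass (log2FC −0.13 ± 0.09, adjusted p = 0.27). The c subunit of the rotor ring is encoded by Atp5g1, Atp5g2 and Atp5g3, which give the same mature protein. Atp5g2 had 307, 283 and 274 CPM before and 164, 181 and 181 CPM after, Atp5g3 201, 211 and 215 CPM before and 268, 288 and 284 CPM after, and Atp5g1 129, 120.2 and 111 CPM before and 124, 119 and 111 CPM after. Only Atp5g2 of the 3 passed with all libraries, and Atp5g3 was higher in the fit without untreated HDAC1–E63R replicate 3 (log2FC 0.42 with adjusted p = 3.08e-07).

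The response of HDAC1–Y48E was set against that of HDAC1–WT gene by gene. The difference passed for 6 of 81 members: Cox7b2 and Cycs had the higher response in HDAC1–Y48E, and Cox7b, Sdhc, Cox8a and Uqcrc1 the lower (all genes 5.84% and 6.77%). Without untreated HDAC1–E63R replicate 3, 5 were higher and 26 lower (all genes 10.2% and 12.9%), and the 6 were among these. Cox6b1, with the most negative difference of the 81 (log2FC −1.05 ± 0.29, SE), did not pass with all libraries (adjusted p = 0.0105) and passed without that library. Leaving out OHT-treated HDAC1–WT replicate 1 or untreated HDAC1–Y48E replicate 1 left 3 calls each. Over all genes 1042 were then lower and 851 higher of 19502, and 1047 and 858 of 19601. Over the 18 libraries the genes whose log2 CPM followed that of Cox7b2 most closely were Rtn3 (Pearson r = 0.923), Tgfb1i1 (0.911) and Heph (0.910), a description that rests on the same 3 high libraries.

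Markers of cell state moved in the same libraries. The summed level of 12 ESC markers ranged from 4033 to 4085 CPM before and from 1581 to 1711 CPM after OHT in HDAC1–Y48E, and 10 of the 12 fell and 1 rose. That of 12 trophoblast markers ranged from 239 to 261 CPM before and from 1344 to 1451 CPM after OHT, with 6 that rose and none at 0. Fibroblast markers ranged from 1045 to 1197 CPM before and from 445 to 467 CPM after OHT. Of the 6 tested 2 rose and 2 fell, with a median log2FC of 0.11, so the list was split although its sum fell. Lum and Postn were at 0 in all 3 untreated libraries, and Dcn and Lum in all 3 treated ones. Primitive endoderm markers were at 457 to 474 CPM before and 437 to 456 CPM after. In HDAC1–WT the ESC markers were at 5038 to 5162 CPM before and 5249.9 to 5788 CPM after. Their part in the members' changes was not tested. In bulk RNA, fewer cells of a type and less RNA per cell cannot be told apart.

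In the HDAC1–E63R line 13 members fell after OHT and none rose with all libraries in the fit (all genes 6.82% and 7.49%). The median log2FC was −0.36 against 0.03 over all genes, and 73 of 81 were negative. With only the 6 libraries of this line in the fit 0 members passed (24 had an unadjusted p under 0.05), beside 135 lower and 318 higher of 16686 genes. By edgeR with all libraries 44 members had an unadjusted p under 0.05, and 48 without untreated replicate 3. DESeq2, run with all libraries, called 25 lower and 0 higher, beside 1696 and 1899 of the 18791 genes. Without untreated replicate 3, 12 fell and 9 rose (all genes 9.63% and 8.85%), the median was 0.03 against 0.05 over all genes, and 42 were positive. The negative median was thus not seen without that library. Leaving out untreated replicate 1 instead gave 24 calls, beside 1259 lower and 1208 higher of 19532 genes. Leaving out untreated replicate 2 gave 41, beside 1559 lower and 1408 higher of 19571 genes. Leaving out OHT-treated replicate 1, 2 or 3 gave 7, 7 and 8, beside 715, 755 and 783 lower over all genes. All of the 13 kept a negative sign without untreated replicate 3 and 11 of the 13 still passed, with log2FC between −0.55 for Ndufb11 and −0.30 for Ndufa9. Cox7a1 and Ndufa6 no longer passed (adjusted p = 0.0196 and 0.0235), and Sdha joined.

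The decreases found in both fits included 3 genes of the complex I core and an anchor of complex II. Ndufs7 had 65.1, 67.4 and 144 CPM before and 38.2, 49.3 and 51.6 CPM after OHT (log2FC −0.99, SE 0.20, adjusted p = 0.00108; without replicate 3, −0.52 with adjusted p = 3.48e-04). Ndufs3 had 62.6, 65.1 and 126 CPM before and 50.2, 39.7 and 42.2 CPM after (log2FC −0.94, SE 0.20, adjusted p = 0.00158; without replicate 3, −0.53 with adjusted p = 0.00134). The third untreated value is high in both, and the treated libraries lay below the other 2 as well. Ndufb11, a membrane-arm subunit of complex I, had 102, 98.8 and 194 CPM before and 65.2, 71.8 and 69.4 CPM after (log2FC −0.93, SE 0.17, adjusted p = 4.11e-04; without replicate 3, −0.55 with adjusted p = 9.67e-06). Sdhd had 137, 137 and 227 CPM before and 94.9, 102 and 109 CPM after (log2FC −0.71, SE 0.14, adjusted p = 9.91e-04; without replicate 3, −0.43 with adjusted p = 1.11e-04). Atp5g2 had 297, 247 and 467 CPM before and 195, 199.5 and 196 CPM after (log2FC −0.78; without replicate 3, −0.47 with adjusted p = 2.70e-06), and Atp5b and Ndufa7 also fell in both fits (log2FC −0.45 and −0.82, without replicate 3 −0.38 and −0.38). In the same libraries the summed ESC markers ranged from 3498 to 4370.2 CPM before and from 2872 to 2951 CPM after OHT and the trophoblast markers from 234 to 278 CPM before and from 562 to 598 CPM after OHT. With all libraries 5 of the 12 ESC markers fell and 1 rose, and 7 of the 12 trophoblast markers rose and 1 fell. Without replicate 3, 6 ESC markers fell and 2 rose, and 7 trophoblast markers rose and 0 fell.

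The 9 members that rose only in the fit without replicate 3 were Cycs, Atp5k, Ndufa11, Uqcr11, Cox6b2, Atp5g1, Ndufa4, Atp5g3 and Cox8c. Their log2FC ran from 0.27 for Atp5g3 to 0.58 for Cycs, apart from the near-absent Cox8c, which had 0.185, 0 and 2.06 CPM before and 0.745, 1.24 and 2.84 CPM after. The names other than Cycs, Cox6b2 and Cox8c were chosen after the values were seen. Of the members that fell in HDAC1–E63R, 10 also fell in HDAC1–Y48E, which is 76.9% of 13 and 52.6% of 19. Without untreated HDAC1–E63R replicate 3 the overlap was again 10, which is 83.3% of 12 and 26.3% of 38, and 8 of these 10 were shared in both fits, among them Atp5b, Atp5g2, Ndufa7, Ndufb11, Ndufs3, Ndufs7 and Uqcrc1. The overlap over all genes was not computed here, so these shares do not mark a trait of the members. By its own call rule, the paper reports that most DEGs of HDAC1–E63R coincide with those of HDAC1–Y48E.

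No member passed between the HDAC1–E63R and HDAC1–WT responses with all libraries (edgeR, where 22 had an unadjusted p under 0.05, and of all genes 1.44% were higher and 1.01% lower). DESeq2 called 1 lower, beside 405 lower and 507 higher of 18791 genes. Leaving out untreated HDAC1–E63R replicate 2 gave 4 calls, beside 345 lower and 349 higher of 19571 genes. Without untreated replicate 3, Cycs was higher and Atp5g2, Uqcrc1 and Atp5b were lower in HDAC1–E63R (all genes 2.9% and 3.63%), with log2FC −0.45 with adjusted p = 0.00137, −0.40 with adjusted p = 0.00102 and −0.25 with adjusted p = 0.00533 for the last 3. Between HDAC1–Y48E and HDAC1–E63R, Cox7b2 alone passed with all libraries (all genes 0.415% higher and 1.53% lower). Without the library Cox7b2 was again the higher one (all genes 2.14%), and 12 were lower in HDAC1–Y48E (all genes 5.31%), led by Cox6b1 (log2FC −0.91 with adjusted p = 5.94e-06), Cox7a2 (log2FC −0.84 with adjusted p = 7.32e-06) and Cox7b (log2FC −0.79 with adjusted p = 4.14e-06), and 6 of the 12 were complex IV genes. In this comparison the median of the members changed sign with the library, from 0.18 with it to −0.24 without it.

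The lines also differed before OHT, while the endogenous enzymes were present. Cox7b2 was lower in untreated HDAC1–Y48E than in untreated HDAC1–WT (log2FC −3.55, SE 0.77, adjusted p = 0.00174), and Cycs was higher (log2FC 0.62, SE 0.15, adjusted p = 0.00392), at 102 ± 4.16 CPM (SD, n = 3) against 66.5 ± 7.44 CPM (SD, n = 3). These were the 2 calls (all genes 5.74% lower and 6.42% higher). Leaving out untreated HDAC1–Y48E replicate 3 left 0 calls, and leaving out HDAC1–WT replicate 2 or 3 or HDAC1–Y48E replicate 1 left 1. In that order, over all genes 758 were lower and 891 higher of 19592, and 789 and 870 of 19512. The last fits had 814 and 875 of 19508, and 768 and 885 of 19601. Without untreated HDAC1–E63R replicate 3, 12 members were higher and 6 lower (all genes 11.4% and 9.98%). In untreated HDAC1–E63R 10 members were higher and Cox6a2 was lower than in HDAC1–WT with all libraries (all genes 9.04% and 7.83%), and 8 were higher and 18 lower without replicate 3 (all genes 11% and 9.59%). The median of the members changed from 0.24 to −0.14. Leaving out untreated HDAC1–E63R replicate 2 gave 25 calls in this comparison, and leaving out HDAC1–WT replicate 1, 2 or 3 gave 7, 5 and 4. In that order, over all genes 1604 were lower and 1949 higher of 19571, and 1103 and 1165 of 19502. The last fits had 1091 and 1277 of 19512, and 1074 and 1221 of 19508. The 8 that were higher in both fits included Cycs (log2FC 0.62, without replicate 3 0.35), Ndufv1 (0.73 and 0.47) and Sdha (0.34 and 0.31). Cox6a2 was lower in both, with 1.76, 1.58 and 2.86 CPM against 9.02, 8.61 and 5.3 CPM.

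After OHT, 14 members were lower and 4 higher in HDAC1–Y48E than in HDAC1–WT (all genes 15.2% and 16.6%), and 33 and 13 without untreated HDAC1–E63R replicate 3 (all genes 20.3% and 21.5%). The 4 were Cycs, Ndufa5, Ndufb7 and Atp5g3, of which the last 3 are named here after their values were seen. Cycs was at 173 ± 9.77 CPM (SD, n = 3) against 63.4 ± 6.43 CPM (SD, n = 3) (log2FC 1.45, SE 0.15, adjusted p = 5.13e-08). The lower ones were led by Cox7a1 (−1.08), Cox6b1 (−1.001), Atp5g2 (−0.93) and Ndufa6 (−0.90), each a log2FC. Sdhb had 102, 79.6 and 109 CPM in HDAC1–Y48E and 166, 168 and 178 CPM in HDAC1–WT (log2FC −0.82, SE 0.15, adjusted p = 1.03e-04), with part of this difference present before OHT (132, 120.0 and 133 CPM against 155, 172 and 156 CPM). In HDAC1–E63R 6 were lower and 2 higher than in HDAC1–WT after OHT (all genes 8.79% and 10.5%), with Cycs at 127 ± 3.42 CPM (SD, n = 3) and higher (log2FC 1.000, SE 0.15, adjusted p = 1.83e-05). Without untreated replicate 3, which enters neither group, 28 were lower and 11 higher (all genes 14% and 15.5%). Leaving out OHT-treated HDAC1–E63R replicate 1 or HDAC1–WT replicate 1 left 4 calls, and leaving out replicate 2 of either left 5. In that order, over all genes 1177 were lower and 1491 higher of 19502, and 1193 and 1395 of 19502. The last fits had 1146 and 1479 of 19553, and 1210 and 1430 of 19493. The HDAC1–WT libraries are shared by these comparisons.

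Of 7 tested chain genes that the symbol rule leaves out, 2 fell in HDAC1–Y48E, beside 14.7% of all genes: Ndufa4l2 and Atpif1, the inhibitor of the ATP synthase (log2FC −0.79, SE 0.20, adjusted p = 0.0024). Ndufa4l2, a paralogue of the complex IV subunit gene Ndufa4 that is known to be induced by low oxygen, had 200.4, 169 and 173 CPM before and 23.7, 23.2 and 24.2 CPM after OHT in HDAC1–Y48E (log2FC −2.93, SE 0.17, adjusted p = 1.04e-11). In HDAC1–E63R it had 197, 166 and 307 CPM before and 73.3, 84.2 and 81.2 CPM after (log2FC −1.49, SE 0.15, adjusted p = 5.09e-07; without replicate 3, −1.20 with adjusted p = 3.02e-14), and in HDAC1–WT 143, 141 and 131 CPM before and 159, 132 and 156 CPM after. Its difference in response passed for HDAC1–Y48E against HDAC1–WT (log2FC −3.04, SE 0.22, adjusted p = 2.44e-09) and against HDAC1–E63R (log2FC −1.44, SE 0.22, adjusted p = 2.87e-04; without replicate 3, −1.74 with adjusted p = 9.90e-14). Ndufa4 itself did not pass in HDAC1–Y48E (log2FC 0.38). The main complex IV gene Cox4i1 had 1226, 1151 and 1112 CPM in untreated HDAC1–WT, 680.4, 653 and 655 CPM in untreated HDAC1–Y48E and 630.1, 614 and 1397 CPM in untreated HDAC1–E63R, where replicate 3 was again apart. It was lower in HDAC1–Y48E than in HDAC1–WT before OHT (log2FC −0.81, SE 0.19, adjusted p = 0.00351) and after it (log2FC −1.07, SE 0.19, adjusted p = 1.02e-04), and lower in HDAC1–E63R after it (log2FC −0.82, SE 0.19, adjusted p = 0.00228). Before OHT the difference of HDAC1–E63R passed only without replicate 3 (log2FC −0.40, SE 0.19, adjusted p = 0.12; without it, −0.90 with adjusted p = 7.57e-17). The response of Cox4i1 to OHT in HDAC1–Y48E did not pass with all libraries (log2FC −0.43, SE 0.19, adjusted p = 0.0746). In HDAC1–E63R 3 of the 7 fell with all libraries and 2 without replicate 3 (all genes 6.82% and 9.63%). Ndufab1, the acyl carrier protein that is also a subunit of complex I, fell in both fits (log2FC −0.67, SE 0.16, adjusted p = 0.00458; without replicate 3, −0.33 with adjusted p = 0.00573), as did Ndufa4l2. The Cox4i1 isoform Cox4i2 fell there only with replicate 3 in the fit (log2FC −1.38, adjusted p = 0.00995; without it, −0.86 with adjusted p = 0.0402).

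Other mitochondrial gene lists were counted in the same way. In HDAC1–Y48E, of the assembly factors 2 rose and 13 fell of 56 tested, with a median log2FC of −0.16, of the citric acid cycle genes 4 rose and 6 fell of 18 tested (−0.14), of the mitochondrial ribosomal proteins 3 rose and 13 fell of 77 tested (−0.07), of the regulators of mitochondrial biogenesis 4 rose and 3 fell of 25 tested (−0.03) and of the carriers 1 rose and 2 fell of 10 tested (−0.18), beside 0.05 over all genes. Of all genes 16.2% rose and 14.7% fell. Without untreated HDAC1–E63R replicate 3, 6 assembly factors rose and 15 fell, and 5 and 9 of the citric acid cycle genes. Of the ribosomal proteins 11 rose and 23 fell in that fit, of the regulators 4 and 5. Of the carriers 2 rose and 4 fell (all genes 21.2% and 19.9%). Among the assembly factors the copper chaperone gene of complex IV, Cox17, had 11.2, 7.86 and 10.02 CPM before and 3.11, 1.45 and 3.42 CPM after OHT (log2FC −1.86, SE 0.33, adjusted p = 8.77e-05). Cox20, which escorts a mitochondrially encoded complex IV subunit, fell (log2FC −1.14), as did the complex I assembly gene Tmem186 (−1.18), and Sdhaf3, an assembly factor of complex II, rose (1.23). Polg2, the accessory subunit of the mitochondrial DNA polymerase, fell (log2FC −1.56), and the testis ADP/ATP carrier gene Slc25a31 rose from 8.03, 10.5 and 8.4 CPM to 24.7, 24.8 and 25.01 CPM (log2FC 1.47). In HDAC1–WT no gene of these lists passed with all libraries. Without untreated HDAC1–E63R replicate 3 Slc25a31 fell in HDAC1–WT (log2FC −1.13, adjusted p = 0.0058), as did 1 ribosomal protein gene, and 1 regulator rose (all genes 0.656% and 0.738%). In HDAC1–E63R 0 rose and 8 fell of 56 tested among the assembly factors and 0 rose and 4 fell of 77 tested among the ribosomal proteins (all genes 7.49% and 6.82%). Without replicate 3, 3 rose and 5 fell of the former, and 7 rose and 3 fell of the latter (all genes 8.85% and 9.63%).

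Of the factors whose motifs were searched, the GABP subunit gene Gabpa fell in HDAC1–Y48E, with 155, 153 and 170.4 CPM before and 107, 111 and 108 CPM after OHT (log2FC −0.55, SE 0.09, adjusted p = 2.76e-05), Yy1 rose (log2FC 0.37, adjusted p = 0.00272) and Nrf1 did not pass (log2FC −0.027 ± 0.12). Esrra, a nuclear receptor of respiratory genes, rose (log2FC 0.67, SE 0.16, adjusted p = 0.00186) and its relative Esrrb, which is also an ESC marker, fell from 548, 573 and 554 CPM to 180.0, 184 and 173 CPM (log2FC −1.64, SE 0.11, adjusted p = 1.30e-10). The values of Gabpa, Nrf1 and Yy1 are for the RNA of these factors alone. Among the members with a promoter window that fell in HDAC1–Y48E, 6 of 16 held the NRF1 motif (37.5%), 4 the ETS motif and 1 the YY1 motif. In all 69 these were 17, 16 and 10. None of the 3 members that rose held any of the motifs.

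**Figure D5:**
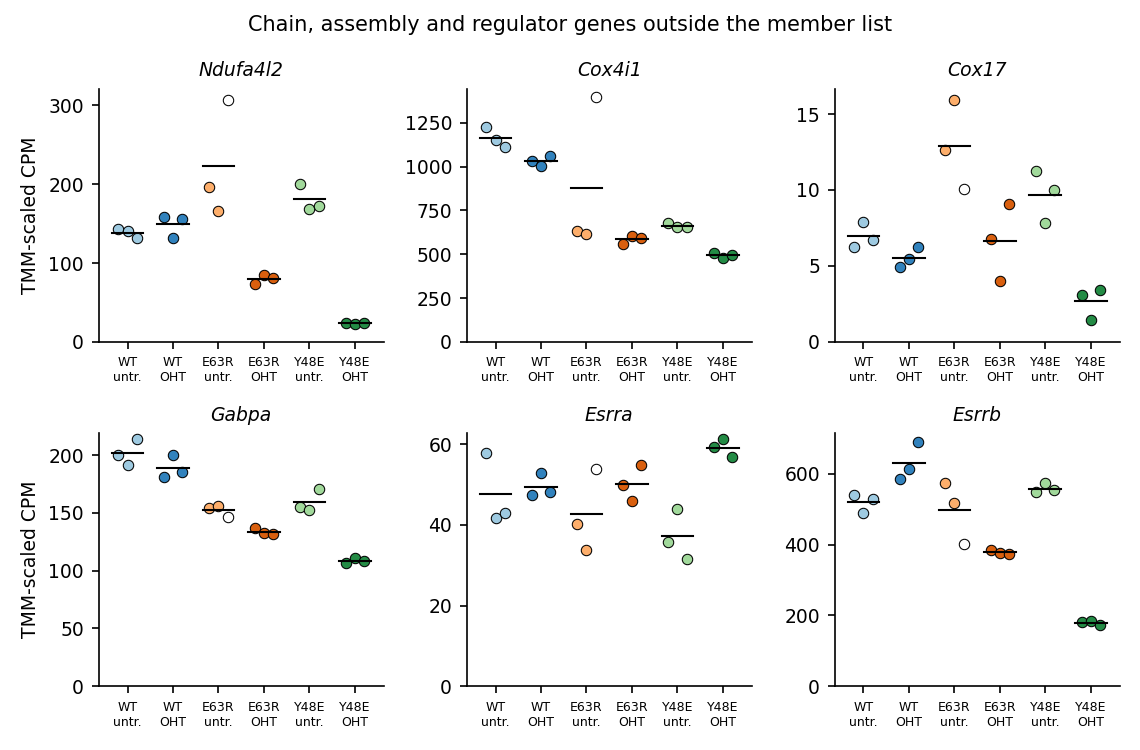
TMM-scaled CPM (y axis) of Ndufa4l2, Cox4i1, Cox17, Gabpa, Esrra and Esrrb in each of the 18 libraries by group (x axis), drawn as in the plot of 8 members. Ndufa4l2 averages 181 CPM in untreated and 23.7 CPM in OHT-treated HDAC1–Y48E, and every library of both mutant lines is below every HDAC1–WT library for Cox4i1 except the white point.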

How the data were processed

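RNA was sequenced from 18 E14TG2a ESC samples, 3 for each of 6 groups. Per the labels, the authors aligned paired reads to mm10 with HISAT2 2.1.0, handled alignments with SAMtools 1.9 and counted reads per gene with HTSeq; the strand setting, HTSeq version and annotation are not given in the sources used here. The deposited values are raw counts, 1 file per library. The 5 entries that name no gene took 59.4% to 61.2% of each file's total and were left out.

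Counts were tested with edgeR 4.0.16 (R 4.3.3): TMM factors, filterByExpr by group, glmQLFit and glmQLFTest with a mean for each of the 6 groups over all 18 libraries, and Benjamini-Hochberg adjustment over all 18791 genes tested. A gene passed at an adjusted p under 0.01; DEGs also changed over 2-fold. SE is |log2FC| divided by the square root of F. CPM are scaled by TMM, and lengths are union exons of the GENCODE annotation of mm10, which matched 98.6% of genes. Scripts were tested on simulated counts. The symbol rule uses no measured value, but it, the gene lists and the tests were chosen with earlier results of these data known. The fit without untreated HDAC1–E63R replicate 3 of comparisons that do not use it was added after the data were examined. Alternatives were DESeq2 1.42.0, relative log expression factors, no filter, a replicate block, removal of GC and length trends, only the libraries compared, an adjusted p of 0.05 and leaving out each library. Intervals cover counting error only.

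Genes were named by rule: in each OHT response up to 8 increases and 8 decreases that passed, did not overlap and averaged at least 1 CPM; core subunits; complex IV isoform pairs; the 5 highest and 5 lowest per kb; up to 8 differences in response each way; up to 4 DEGs of each other list; and the 3 genes most correlated with the most changed member. Other genes given with values (Atp5c1, Atp5g1, Atp5g3, Atpif1, Cox4i1, Esrra, Gabpa, Nrf1, Ndufab1 and Yy1 among them) were chosen after their values were seen. The values of 1 named gene are not reported here.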

Additional observations from a re-analysis of the deposited data

Results flagged for a closer look

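The responses to OHT of 6 members differed between HDAC1–Y48E and HDAC1–WT by edgeR's interaction test, and that of 1 also between HDAC1–Y48E and HDAC1–E63R. Against HDAC1–WT 2.47% of the members were higher and 4.94% lower, beside 5.84% and 6.77% of all genes. The members were thus called less often than all genes. Against HDAC1–E63R 0.415% of all genes were higher and 1.53% lower. Each difference is a log2FC in the first line minus that in the second. For Cox7b2 the difference was 5.36 (adjusted p = 2.55e-04), from 5.43 in HDAC1–Y48E and 0.066 in HDAC1–WT. Its level before OHT was lower in HDAC1–Y48E than in HDAC1–WT (log2FC −3.55). For Cycs the difference was 0.83 (adjusted p = 0.0053), from 0.77 in HDAC1–Y48E and −0.068 in HDAC1–WT. For Cox7b the difference was −0.86 (adjusted p = 0.00665), from −1.01 in HDAC1–Y48E and −0.15 in HDAC1–WT. For Sdhc the difference was −0.82 (adjusted p = 0.0013), from −0.75 in HDAC1–Y48E and 0.077 in HDAC1–WT. For Cox8a the difference was −0.74 (adjusted p = 0.00389), from −0.84 in HDAC1–Y48E and −0.11 in HDAC1–WT. For Uqcrc1 the difference was −0.69 (adjusted p = 0.00244), from −0.66 in HDAC1–Y48E and 0.021 in HDAC1–WT. Against HDAC1–E63R the difference for Cox7b2 was 6.23 (adjusted p = 7.77e-04), and 4.45 without untreated HDAC1–E63R replicate 3. Cox7b2, Sdhc and Uqcrc1 passed against HDAC1–WT under all 21 alternatives run, Cox8a under 17, Cycs under 11 and Cox7b under 9. Groups of 3 libraries are too small for a test of single outlying libraries.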

How the results depend on the processing

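The number of members called moved by over 1.5 times under several settings, and the values under those settings were as follows (members in both directions; the main count is 0 for the HDAC1–WT response, 13 for the HDAC1–E63R response, 22 for the HDAC1–Y48E response, 0 for the HDAC1–E63R minus HDAC1–WT difference, 6 for the HDAC1–Y48E minus HDAC1–WT difference, 1 for the HDAC1–Y48E minus HDAC1–E63R difference, 11 for the untreated HDAC1–E63R comparison, 2 for the untreated HDAC1–Y48E comparison, 8 for the OHT-treated HDAC1–E63R comparison, 18 for the OHT-treated HDAC1–Y48E comparison). At an adjusted p of 0.05 the count was 35 for the HDAC1–E63R response, 2 for the HDAC1–E63R minus HDAC1–WT difference, 13 for the HDAC1–Y48E minus HDAC1–WT difference, 17 for the untreated HDAC1–E63R comparison, 6 for the untreated HDAC1–Y48E comparison, 21 for the OHT-treated HDAC1–E63R comparison, 31 for the OHT-treated HDAC1–Y48E comparison. Over all genes, lower and higher in the same order, these were 2245 and 2482, 496 and 590, 2130 and 2034, 2438 and 2701. The remaining comparisons had 1883 and 2037, 2555 and 2905, 3956 and 4287, each of 18791 genes. With no filter on low counts the count was 32 for the HDAC1–E63R response, 7 for the HDAC1–E63R minus HDAC1–WT difference, 15 for the HDAC1–Y48E minus HDAC1–WT difference, 2 for the HDAC1–Y48E minus HDAC1–E63R difference, 8 for the untreated HDAC1–Y48E comparison, 21 for the OHT-treated HDAC1–E63R comparison, 32 for the OHT-treated HDAC1–Y48E comparison. Over all genes, lower and higher in the same order, these were 1503 and 1759, 382 and 469, 1539 and 1368, 483 and 201. The remaining comparisons had 1247 and 1434, 1816 and 2219, 3084 and 3294, each of 32028 genes. With GC and length trends removed the count was 37 for the HDAC1–E63R response, 36 for the HDAC1–Y48E response, 8 for the HDAC1–E63R minus HDAC1–WT difference, 17 for the HDAC1–Y48E minus HDAC1–WT difference, 5 for the untreated HDAC1–Y48E comparison, 25 for the OHT-treated HDAC1–E63R comparison, 35 for the OHT-treated HDAC1–Y48E comparison. Over all genes, lower and higher in the same order, these were 3343 and 1057, 4797 and 2252, 741 and 253, 2637 and 892. The remaining comparisons had 1160 and 1515, 2614 and 1730, 4511 and 2559, each of 18791 genes. With these trends removed and a replicate block the count was 38 for the HDAC1–E63R response, 36 for the HDAC1–Y48E response, 9 for the HDAC1–E63R minus HDAC1–WT difference, 17 for the HDAC1–Y48E minus HDAC1–WT difference, 5 for the untreated HDAC1–Y48E comparison, 25 for the OHT-treated HDAC1–E63R comparison, 35 for the OHT-treated HDAC1–Y48E comparison. Over all genes, lower and higher in the same order, these were 3191 and 1012, 4718 and 2160, 615 and 230, 2541 and 832. The remaining comparisons had 1109 and 1445, 2541 and 1659, 4434 and 2490, each of 18791 genes. With only the libraries compared in the fit the count was 0 for the HDAC1–E63R response, 48 for the HDAC1–Y48E response, 29 for the HDAC1–Y48E minus HDAC1–WT difference, 0 for the untreated HDAC1–E63R comparison, 16 for the untreated HDAC1–Y48E comparison, 39 for the OHT-treated HDAC1–E63R comparison, 45 for the OHT-treated HDAC1–Y48E comparison. Over all genes, lower and higher in the same order, these were 135 and 318 of 16686, 3828 and 4136 of 17162, 2354 and 1810 of 18286. The remaining comparisons had 349 and 286 of 16315, 1839 and 1978 of 16188, 2773 and 2924 of 17010, 3718 and 4140 of 17526. By DESeq2 the count was 25 for the HDAC1–E63R response, 1 for the HDAC1–E63R minus HDAC1–WT difference, 5 for the untreated HDAC1–Y48E comparison. Over all 18791 genes, lower and higher in the same order, these were 1696 and 1899, 405 and 507, 1482 and 1612. With each library left out in turn the count ran from 7 to 41 for the HDAC1–E63R response, from 16 to 47 for the HDAC1–Y48E response, from 0 to 4 for the HDAC1–E63R minus HDAC1–WT difference, from 3 to 31 for the HDAC1–Y48E minus HDAC1–WT difference, from 1 to 13 for the HDAC1–Y48E minus HDAC1–E63R difference, from 4 to 26 for the untreated HDAC1–E63R comparison, from 0 to 18 for the untreated HDAC1–Y48E comparison, from 4 to 39 for the OHT-treated HDAC1–E63R comparison, from 13 to 46 for the OHT-treated HDAC1–Y48E comparison, and stayed at 0 for the HDAC1–WT response; untreated HDAC1–E63R replicate 3 gave most of these highest values. The members' median log2FC ran from −0.043 to 0.015 in the HDAC1–WT response, from −0.55 to 0.031 in the HDAC1–E63R response, from −0.25 to −0.19 in the HDAC1–Y48E response, and that of HDAC1–Y48E was −0.44 with GC and length trends removed, with or without the block. Calls over all genes moved too. Their shares without untreated HDAC1–E63R replicate 3 are given with each comparison above. In the HDAC1–E63R response 1281 genes were lower and 1407 higher of 18791 in the main fit. With GC and length trends removed these were 3343 and 1057, and with no filter 1503 and 1759 of 32028. In the HDAC1–Y48E response 2767 were lower and 3045 higher, and 3828 and 4136 of 17162 with only the libraries compared. The cause of these shifts was not tested. As a share of the TMM-scaled library size the members took 1.21% in OHT-treated HDAC1–E63R, 1.44% in untreated HDAC1–Y48E and 1.17% in OHT-treated HDAC1–Y48E, against 1.27%, 1.38% and 1.30% of counts. Replicate numbers did not pair the libraries (same-numbered deviations correlated at −0.02 to 0.04), and a replicate block gave 12 calls in the HDAC1–E63R and 21 in the HDAC1–Y48E response. Of 423 values of named members under alternatives, 355 stayed on their side of the threshold, 68 lost the call and none reversed. The 355 include 26 at an adjusted p of 0.05, where a call made at 0.01 cannot be lost.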

Other observations

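Atp5j, which encodes coupling factor 6 of the ATP synthase, and Gabpa, which encodes a subunit of the ETS factor GABP, lie on opposite strands with 397 exonic bases in common. In HDAC1–Y48E Gabpa fell (log2FC −0.55, SE 0.09, adjusted p = 2.76e-05) while Atp5j held 139.6, 119 and 114 CPM before and 123, 122 and 122 CPM after OHT (log2FC −0.023, SE 0.12, adjusted p = 0.90). Since the strand setting of the counting is not stated, reads from the shared bases cannot be assigned to either gene.

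The ATP synthase f subunit gene Atp5j2 was higher in untreated HDAC1–E63R than in HDAC1–WT in both fits (log2FC 0.92, SE 0.20, adjusted p = 0.00136; without replicate 3, 0.44 with adjusted p = 1.05e-04). It held 108, 106 and 107 CPM in untreated HDAC1–WT, 163, 125 and 319 CPM in untreated HDAC1–E63R and 185, 173 and 166 CPM in untreated HDAC1–Y48E. The difference between untreated HDAC1–Y48E and HDAC1–WT passed only without untreated HDAC1–E63R replicate 3 (log2FC 0.71, SE 0.20, adjusted p = 0.0132; without it, 0.71 with adjusted p = 7.13e-10). The gene was named after its values were seen.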
